A study of Mus musculus with 10 samples.

Results

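The guanylate binding proteins are large GTPases of the dynamin superfamily, and the 8 genes described here are Gbp2, Gbp3, Gbp4, Gbp5, Gbp6, Gbp7, Gbp8 and Gbp9. They were taken by name from a table of 20617 genes. The table pairs names with values that stand elsewhere, and for these 8 genes the values were read 7 rows above the row that carries the name. CD3+ T cells were taken from the spleens of 10 Nf1OPG mice and their RNA was sequenced in bulk, for 5 mice treated with PBS (replicates 1 to 5) and 5 treated with OVA (replicates 6 to 10). The comparison asks whether experimental asthma alters the transcripts of T cells.

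Both groups carried the same alleles, Nf1 flox/mut; GFAP-Cre on a C57BL/6 background. Such mice are heterozygous for Nf1 in every cell and lose the other copy in neuroglial progenitors, where GFAP-Cre is active, so the T cells studied here are Nf1 heterozygous in both groups. OVA is chicken-egg ovalbumin, given intraperitoneally on days -14 and -7 and then by the intranasal route. The injections held 0.5 mL at 16 µg/mL with aluminum hydroxide at 2 mg/mL. Control mice were given PBS alone, which the paper calls the vehicle. Aluminum hydroxide is stated for the OVA group only, so its part and that of ovalbumin cannot be told apart. The labels give neither age nor sex, and no group without the Nf1 alleles was included. Each replicate was taken as 1 mouse, since no source used here speaks of pooling, and p-values measure the spread between these libraries.

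Interferon gamma, the cytokine of type 1 helper T cells, natural killer cells and activated CD8+ T cells, acts through its receptor and the Jak kinases, and the transcription factor Irf1 takes part in switching on the Gbp genes. The Gbp proteins bind and hydrolyse guanine nucleotides, assemble on the membranes of vacuoles that hold bacteria or parasites, and promote their lysis and inflammasome activation. T cells also express these genes, and their transcripts are widely read as a record of interferon exposure. Ovalbumin with aluminum hydroxide is known for type 2 rather than type 1 responses. No cells were given interferon gamma here, so induction of the genes by the cytokine is background and was not measured.

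The 8 genes lie in a pair of clusters in GRCm38. Gbp5 (chr3:142493978-142522345), Gbp7 (chr3:142530342-142550150), Gbp3 (chr3:142560026-142573210) and Gbp2 (chr3:142620602-142638009) are on the + strand of chromosome 3, with Gbp2b between Gbp3 and Gbp2. Gbp8 (chr5:105014150-105139541), Gbp9 (chr5:105077630-105139540), Gbp4 (chr5:105115767-105139587) and Gbp6 (chr5:105270702-105293699) are on the - strand of chromosome 5, together with Gbp10 and Gbp11. All 8 are annotated as protein coding. These are the coordinates of the table, whose ends lie 1 base past those of the GENCODE M21 annotation.

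For the 4 genes on chromosome 3, RefSeq gives promoters in GRCm38.p6. The 250 bases before the start site are shown because each holds a match to a motif of the interferon response. They are written 5′ to 3′ on the + strand. Capitals mark each match to GAAA-NN-GAAA (N being any base), the core of the interferon stimulated response element bound by interferon regulatory factors, and to TTCNNNGAA, the gamma activated sequence of interferon gamma targets, both searched on both strands.
Gbp2, chr3:142620413-142620662: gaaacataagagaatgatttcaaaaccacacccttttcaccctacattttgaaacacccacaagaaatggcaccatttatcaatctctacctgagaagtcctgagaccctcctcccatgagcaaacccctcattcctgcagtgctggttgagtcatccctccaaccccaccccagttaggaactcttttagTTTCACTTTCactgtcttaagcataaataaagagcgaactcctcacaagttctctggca
Gbp3, chr3:142559794-142560043: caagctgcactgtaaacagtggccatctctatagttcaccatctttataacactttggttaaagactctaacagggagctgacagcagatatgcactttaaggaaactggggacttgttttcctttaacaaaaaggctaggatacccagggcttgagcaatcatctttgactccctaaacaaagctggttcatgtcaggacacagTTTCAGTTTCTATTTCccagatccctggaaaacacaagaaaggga
Gbp5, chr3:142496684-142496933: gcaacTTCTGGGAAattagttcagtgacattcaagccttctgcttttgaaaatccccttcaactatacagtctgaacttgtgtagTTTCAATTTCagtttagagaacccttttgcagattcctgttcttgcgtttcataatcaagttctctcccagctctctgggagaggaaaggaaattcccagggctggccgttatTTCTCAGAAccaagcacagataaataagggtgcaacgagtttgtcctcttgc
Gbp7, chr3:142530086-142530335: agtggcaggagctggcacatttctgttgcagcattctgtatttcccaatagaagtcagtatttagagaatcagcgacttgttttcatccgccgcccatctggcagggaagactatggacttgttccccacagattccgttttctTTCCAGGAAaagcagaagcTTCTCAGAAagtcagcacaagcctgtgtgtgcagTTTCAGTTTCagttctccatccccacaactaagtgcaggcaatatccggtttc
The RefSeq start sites are not the starts of the spans given above. The window of Gbp5 lies inside its span, those of Gbp2 and Gbp3 reach into theirs, and that of Gbp7 ends before its span. The response element core was present before the RefSeq start site in all 4 genes, read on the - strand, and for Gbp2 and Gbp5 the match lies inside the span. Its first base lay 59 bases before the start of Gbp2, 53 before that of Gbp7 and 165 before that of Gbp5, while Gbp3 held a pair of overlapping matches 45 and 39 bases before its start. The shares of all promoters are for windows from 250 bases before to 50 after the start. The 4 genes were searched over the same windows, and all their matches lay before the start. Over all 32851 promoters in the RefSeq table, 3.44% held the response element core. The gamma activated sequence occurred in Gbp5, 245 and 52 bases before the start, and in Gbp7, 106 and 87 bases before it, and in 8.30% of all promoters. A second RefSeq promoter of Gbp3 (chr3:142560106-142560405) held neither motif. A match describes the letters in the window and not binding. RefSeq promoters of Gbp4, Gbp6, Gbp8 and Gbp9 were not analysed here.

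The distance of 7 rows was examined without the treatment groups. Among genes whose names stand near the Gbp names in alphabetical order, 43 that T cells are known to express and 8 known from other tissues were read at distances from 0 to 12 rows. At 7 rows the first averaged 9.94 and the others 2.29 on the log2 scale, a difference of 7.66. The next largest difference was 2.99, at 6 rows, and with the names as listed it was 0.98. An alignment of the row means with the annotation of the names gave 7 rows a probability of 0.999 at each of the 8 genes.

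**Figure D1:**
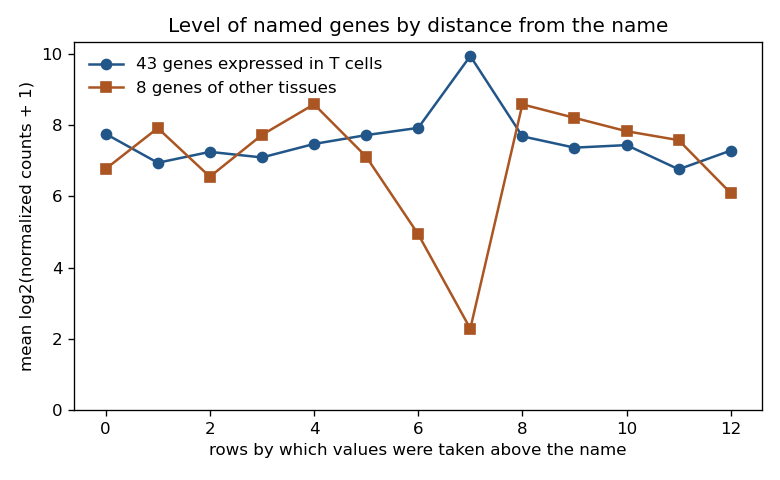
Mean log2(normalized counts + 1) of 43 genes expressed in T cells (circles) and 8 genes of other tissues (squares), by the number of rows (x axis) by which the values were read above the name. At 7 rows the circles reach 9.94 and the squares fall to 2.29, a difference of 7.66.

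The PBS libraries held between 6835696 and 23130017 recovered reads, the fewest in PBS 3, and the OVA libraries between 14711683 and 29915782. The values are counts divided by a size factor of each library (normalized counts), and 1 read was worth between 0.626 and 2.77 of them. T cell markers (Cd3e, Cd4, Cd8a and 7 others) summed to between 85901 and 156538 normalized counts in the PBS libraries, lowest in PBS 3, and to between 104437 and 140378 in the OVA libraries. All 10 were read. B cell markers reached 7358 and neutrophil markers 75936 in OVA 6, against 824 to 2797 and 9356 to 33450 in the other 9 libraries. Stromal markers summed to between 7.75 and 77.5 in PBS and between 114 and 194 in OVA. Markers were placed on rows by the alignment, whatever the probability of the placement. No marker that was placed on a row of values passed the limma test between groups after adjustment, and 7 of 8 stromal markers were placed. An unadjusted p under 0.05 in limma was found for 6 of these 7, for 3 of 8 B cell and for 2 of 8 neutrophil markers. The same held for 1 of 10 macrophage markers and for none of the T cell, dendritic cell, NK cell and endothelial markers. Of all genes, 9.77% had such a p.

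All 8 Gbp genes were read in the spleen T cell preparations of both groups, and none passed the test between OVA and PBS. Which cells of the preparation the reads came from was not tested. Over all 20249 genes tested, limma on log2(normalized counts + 1) with Benjamini-Hochberg adjustment called 0.00494% (1 gene), and it called 0 of the 8 Gbp genes. No Gbp gene had an unadjusted limma p under 0.05, where 9.77% of all genes did. The PBS and OVA ranges overlapped in 8 of 8 genes. Groups without overlap were found in 1.78% of all genes. EdgeR and DESeq2 on the recovered reads also called 0 of the 8, where edgeR called 0.00988% of all genes and DESeq2 0.894% of the 18678 genes to which it gave an adjusted p. Log2 fold changes of OVA against PBS ran from -0.33 to 0.42 with a median of 0.03, beside 0.04 over all genes. Of the 8 means on the log2 scale 4 were higher and 4 lower in OVA, where 54.5% of all genes were higher. With every library set to the same total, 6 of 8 and 67.0% were higher, and the median of all genes moved from 0.04 to 0.15.

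**Figure D2:**
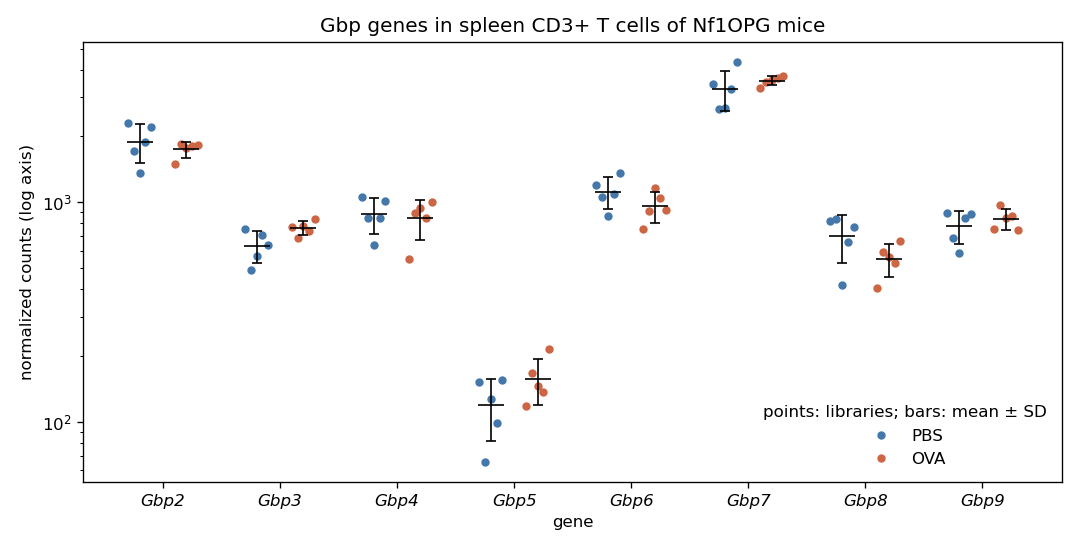
Normalized counts (log axis) of the 8 Gbp genes in the 5 PBS and 5 OVA libraries, each point 1 library, black bars the mean ± SD. The ranges of the groups overlap in all 8 genes, and the levels span from 65.4 in Gbp5 to 4327 in Gbp7.

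Gbp2, whose product coats and helps to break the vacuole of Toxoplasma, was read at 2292, 1704, 1351, 1879.6 and 2197 normalized counts in PBS 1 to 5. In OVA 6 to 10 it was read at 1488, 1830.2, 1754, 1809 and 1811. Every OVA value lay inside the PBS range, with PBS 3 lowest and PBS 1 highest of all. The means were 1885 ± 381 (SD, n = 5) and 1738 ± 143 (SD, n = 5). The log2 fold change was -0.10 ± 0.15 (SE), with a 95% interval from -0.41 to 0.22, an adjusted p of 0.869 and a two-sided exact permutation p of 0.563. Its sign turned, to 0.017, with every library at the same total.

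Gbp7, which is known to help deliver the phagocyte oxidase to bacterial vacuoles, had the highest normalized counts of the 8. The PBS libraries gave 3467, 2641, 2686, 3269.7 and 4327. The OVA libraries gave 3308, 3506, 3608, 3663 and 3747, all inside the PBS range and close to each other. The means were 3278 ± 688 (SD, n = 5) in PBS and 3567 ± 169 (SD, n = 5) in OVA. On the log2 scale the difference was 0.14 ± 0.14 (SE; 95% interval -0.15 to 0.44), with an adjusted p of 0.765 and an exact permutation p of 0.294. The processed pseudogene Gm43802 lies within Gbp7 on the same strand and shares 10.5% of the 50-base stretches of the Gbp7 transcripts.

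Gbp3, 1 of the chromosome 3 genes whose joint deletion leaves mice susceptible to Toxoplasma, came closest to a difference. It stood at 755, 488, 570.5, 706 and 641 normalized counts in PBS 1 to 5 and at 773, 688, 779, 736 and 841 in OVA 6 to 10. OVA 6, 8 and 10 were above the highest PBS library, and OVA 7 and 9 were within the PBS range. The means were 632 ± 106 and 764 ± 56.7 (SD, n = 5 each), a fold of 1.21. The log2 difference of 0.29 ± 0.14 (SE; 95% interval -0.02 to 0.59) gave an adjusted p of 0.530. The exact permutation p of this single value was 0.0476, unadjusted, where the smallest that 5 against 5 libraries allow is 0.00794.

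Gbp5, known for promoting assembly of the NLRP3 inflammasome, was the lowest of the 8 and had the largest difference in size. PBS 1 to 5 gave 151, 65.4, 127, 98.98 and 154 normalized counts, from 46 reads or more in each library. OVA 6 to 10 gave 118, 166, 146, 136 and 215. OVA 7 and OVA 10 exceeded all PBS libraries, and PBS 2 was lowest. The means were 119 ± 37.4 in PBS and 156 ± 37.2 in OVA (SD, n = 5 each), and the log2 difference was 0.42 ± 0.26 (SE; 95% interval -0.14 to 0.98), with an adjusted p of 0.615 and an exact permutation p of 0.167. Without PBS 2 the difference was 0.22. The upper end of the interval is a fold of 1.97.

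Of the chromosome 5 genes, Gbp8 had the largest difference. It was read at 821, 841, 421, 659.5 and 771 normalized counts in PBS 1 to 5 and at 405, 591, 562, 527 and 668 in OVA 6 to 10. OVA 6 was just below the lowest PBS library, PBS 3, and the other OVA libraries lay inside the PBS range. The means were 703 ± 172 in PBS and 551 ± 96.6 in OVA (SD, n = 5 each), a log2 difference of -0.33 ± 0.20 (SE; 95% interval -0.75 to 0.10) with an adjusted p of 0.606 and an exact permutation p of 0.175. Without PBS 3 the difference was -0.50, with an adjusted p of 0.312, and without OVA 6 it was -0.22.

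Gbp6 stood at 1195, 1055, 861, 1093 and 1359.7 normalized counts in PBS and at 756, 907, 1162, 1039 and 925 in OVA. OVA 6 alone lay below the PBS range. The means were 1113 ± 184 and 958 ± 152 (SD, n = 5 each), and the log2 difference was -0.21 ± 0.15 (SE; 95% interval -0.54 to 0.11; adjusted p = 0.664). The reads of Gbp6 are uncertain, since 49.9% of the 50-base stretches of its transcripts occur in other Gbp genes, Gbp10 foremost, and 65.0% in Gm43302, an annotated gene that spans Gbp6 and Gbp10 on the same strand. How the counting treated reads that match several genes is not given in the sources used here.

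Gbp4 and Gbp9 differed least among the chromosome 5 genes. Gbp4 gave 1053, 846, 639.7, 842 and 1008 normalized counts in PBS and 548, 891, 935, 850.4 and 1003 in OVA, with OVA 6 below all other libraries. Its log2 difference was -0.06 ± 0.18 (SE; 95% interval -0.45 to 0.33; adjusted p = 0.933) and was 0.050 with every library at the same total, 0.086 without OVA 6 and 0.0084 without PBS 1. Gbp9 gave 896, 685, 584, 846 and 878 in PBS and 753, 975, 849, 862 and 744 in OVA, with OVA 7 highest and PBS 3 lowest. Its log2 difference was 0.12 ± 0.15 (SE; 95% interval -0.20 to 0.44; adjusted p = 0.831). The annotated spans of Gbp4, Gbp8 and Gbp9 overlap on the - strand, and 7.53%, 18.1% and 8.05% of their 50-base stretches occur in other Gbp genes. Gbp5 shares none within the family, and Gbp2, Gbp3 and Gbp7 between 2.03% and 3.75%.

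Per kilobase of annotated exon, Gbp2 and Gbp7 stood well above the other 6 genes. Levels per length were 720 ± 112 normalized counts per kb for Gbp2, 609.6 ± 88.3 for Gbp7, 214 ± 32.5 for Gbp3, 182 ± 44.8 for Gbp8, 174 ± 30.0 for Gbp6, 156 ± 22.2 for Gbp9, 115 ± 21.5 for Gbp4 and 20.8 ± 6.05 for Gbp5 (SD over all 10 libraries). The step from Gbp7 to Gbp3 was 2.86-fold and that from Gbp4 to Gbp5 5.68-fold, in 10 of 10 libraries each. Gbp2 was 1.18-fold above Gbp7 and Gbp9 1.37-fold above Gbp4, also in 10 of 10 libraries, but the order of Gbp9 and Gbp4 turned with the length of the longest transcript in place of all exons (160.0 and 189.9 normalized counts per kb). For these 4 of 7 neighbouring pairs the exact sign-flip permutation p within libraries was 0.00195, the smallest that 10 libraries allow, and 0.00342 after Benjamini-Hochberg adjustment over the 7 pairs. The pairs were taken from the order of these same values. Any ratio that is steady over the libraries passes this test, also one set by the length used or by the counting of shared reads.

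The middle of the order was not resolved. Gbp3 and Gbp8 (adjusted p = 0.148), Gbp8 and Gbp6 (0.596) and Gbp6 and Gbp9 (0.123) did not differ beyond their spread by the same exact permutation test, although leaving out PBS 2 separated Gbp3 from Gbp8 and leaving out OVA 7 separated Gbp6 from Gbp9, each with an adjusted p of 0.0328. With the longest transcript, Gbp2, Gbp7 and Gbp3 led and Gbp5 was last as before, and the others came in the order Gbp6, Gbp4, Gbp8 and Gbp9. Ratios of genes within a library do not depend on the size factors.

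**Figure D3:**
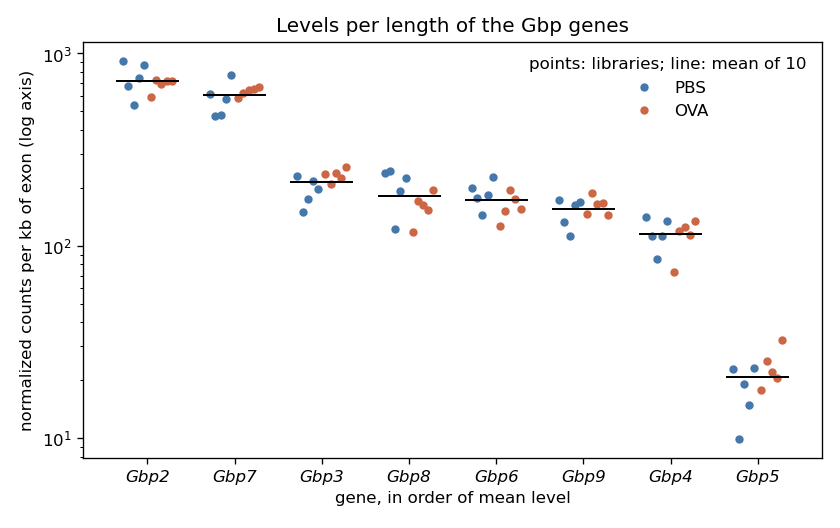
Normalized counts per kb of exon (log axis) of the 8 Gbp genes in order of their mean level, each point 1 library and each black line the mean of 10. Gbp2 (mean 720) and Gbp7 (609.6) stand above the rest, and Gbp5 (20.8) stands below.

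Several libraries were high or low for most of the 8 genes. PBS 1 was above the gene's own mean of 10 libraries for 8 of 8 genes, with a median difference of 0.21 on the log2 scale, and PBS 5 for 7 of 8 with a median of 0.27. PBS 3 was below for 8 of 8, with a median of -0.37, and was the lowest library for Gbp2 and Gbp9. The same differences over all genes tested had medians between -0.04 and 0.05 in the 10 libraries. PBS 3 was also the library with the fewest reads and the lowest sum of T cell markers (85901), and PBS 1 had the highest such sum (156538). Other libraries did not follow this order. PBS 5, with the highest median of the 8 genes, had a sum of 126396. OVA 9 had a sum of 104437 and was above the mean for 7 of 8 genes, with a median of 0.03. The part of T cell content in the Gbp values was not tested. In bulk RNA fewer cells of a type and less RNA per cell cannot be told apart.

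OVA 6 showed another pattern. It was the lowest library for Gbp4 (-0.63), Gbp6 (-0.43) and Gbp8 (-0.59) on chromosome 5, and lay at -0.27 for Gbp2 and -0.16 for Gbp5, while Gbp7 (-0.03) and Gbp9 (-0.09) were near their means and Gbp3 (0.16) was above. Beyond the 8 genes, Gbp10 stood at -0.66 and Gbp2b at -1.80 in this library. OVA 6 was the library with the highest sums of B cell and neutrophil markers, whose part in these values was not tested. PBS 2 differed again, being lowest for Gbp3 (-0.50), Gbp5 (-1.002) and Gbp7 (-0.36) and highest for Gbp8 (0.47).

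**Figure D4:**
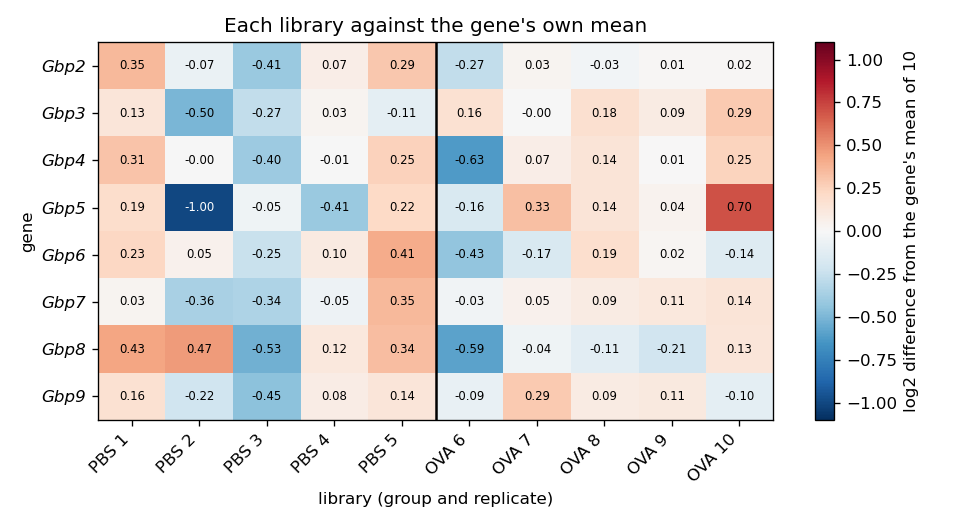
Log2 difference of each library (columns, 5 PBS left of the black line and 5 OVA right of it) from the gene's own mean of 10 libraries, for the 8 Gbp genes (rows), with red above and blue below the mean. PBS 3 is below the mean in all 8 rows, PBS 1 above it in all 8, and OVA 6 is lowest for Gbp4, Gbp6 and Gbp8.

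The spread of the log2 values was larger in PBS than in OVA for 7 of the 8 genes. It was also larger in PBS for 72.5% of all genes tested. For Gbp7 the SDs were 0.29 in PBS and 0.07 in OVA. Without PBS 3, 5 of the 8 genes and 62.0% of all genes had the larger spread in PBS, and for Gbp7 the PBS value remained 0.29.

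The genes whose values followed the 8 most closely from library to library, after each group's mean was subtracted, included a gene of the interferon response. The search covered 12452 other genes with unrepeated names that averaged 20 normalized counts or more and were placed with a probability of at least 0.9. Pearson r was taken over the 10 libraries to the mean of the 8 genes. The highest included Gm48048 (r = 0.98, Spearman rho = 0.99), Syt11 (0.96, 0.92), Gm10557 (0.95, 0.96) and Trim21 (0.94, 0.92). Gm48048 averaged 20.4 normalized counts, just above the minimum. Trim21 is an antibody receptor of the cytosol that interferon induces. Syt11 is a synaptotagmin, and Gm48048 and Gm10557 are predicted genes. They were picked as the highest of all genes searched, which raises r. Without the libraries farthest from the median, PBS 3 and OVA 6, r was between 0.88 (Gm10557) and 0.98 (Gm48048) for these genes.

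The other genes of the interferon gamma pathway did not pass the test either. Of 51 listed, 48 were placed on a row of values. Limma, edgeR and DESeq2 called 0 of 48, beside 0.00494%, 0.00988% and 0.894% of all genes with an adjusted p. In limma 5 of 48 had an unadjusted p under 0.05, where 9.77% of all genes did. Their median log2 fold change was 0.02, with 25 higher and 23 lower in OVA, beside 54.5% higher over all genes. Il18r1 and Il18rap were placed with a probability under 0.9 (0.775 and 0.749), so their rows are less sure. The row of Il18r1 had the lowest adjusted p of the 48 in limma (0.304). Its means were 416 ± 87.3 in PBS and 602.5 ± 91.2 in OVA (SD, n = 5 each), a log2 difference of 0.55 ± 0.17 (SE). In it 4 of 5 OVA libraries were above the highest PBS library. Cxcl11, Ido1 and Nos2 were not analysed here.

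The ligand itself was low. Ifng was read at 54.3, 32.7, 60.9, 61.3 and 43.3 normalized counts in PBS and at 50.2, 34.4, 50.2, 32.4 and 68.5 in OVA, with a log2 difference of -0.11 ± 0.31 (SE) and an adjusted p of 0.928. Of the 8 genes for the ligand and its inducers in T cells, Eomes, a T-box factor that drives Ifng in CD8+ T cells, had the largest test statistic among those placed with a probability of at least 0.9. Its means were 251.8 ± 33.8 in PBS and 324 ± 28.5 in OVA (SD, n = 5 each), a log2 difference of 0.37 ± 0.15 (SE) with an adjusted p of 0.446.

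Among 10 genes of the receptor and its signal path, Ifngr1, the ligand-binding chain, had the largest test statistic, and it was the 1 gene of the 48 whose groups did not overlap, beside 1.78% of all genes. PBS 1 to 5 gave 8370.0, 6024, 6057, 5858 and 6796 normalized counts, and OVA 6 to 10 gave 4727, 5418, 5289, 4595 and 5105. All 5 OVA libraries were below the lowest PBS library. The log2 difference of -0.39 ± 0.13 (SE) had an adjusted p of 0.313, so that it did not pass the test over all genes, and an exact permutation p of 0.00794, the smallest the design allows. Irf1, a transcription factor that interferon induces, gave 3489 ± 725 in PBS and 3731 ± 696 in OVA (SD, n = 5 each), a log2 difference of 0.11 ± 0.18 (SE; adjusted p = 0.879).

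In the remaining groups no gene passed either. Of 6 inhibitors, Usp18, which blocks type I interferon receptor signalling, had the largest statistic, with means of 1370.5 ± 204 in PBS and 968 ± 273 in OVA (SD, n = 5 each) and an adjusted p of 0.342. Of 7 immunity related GTPases, a second family that acts on vacuoles, Tgtp1 had the largest, with means of 5366 ± 1515 and 4001 ± 683 and an adjusted p of 0.551. Among 11 genes of antigen presentation it was Nlrc5, a transactivator of MHC class I genes, with 466.4 ± 123 and 591 ± 64.5 and an adjusted p of 0.528. Cxcl9, a chemokine that draws T cells, ran from 3.61 to 109 normalized counts in PBS and from 0 to 18.9 in OVA, with an adjusted p of 0.580. Of the 3 other Gbp genes, Gbp2b had a log2 difference of -0.49 ± 0.36 (SE; adjusted p = 0.673) and Gbp10 one of 0.03 ± 0.22 (SE; adjusted p = 0.972), while Gbp11 averaged 2.41 normalized counts in PBS and 4.72 in OVA.

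**Figure D5:**
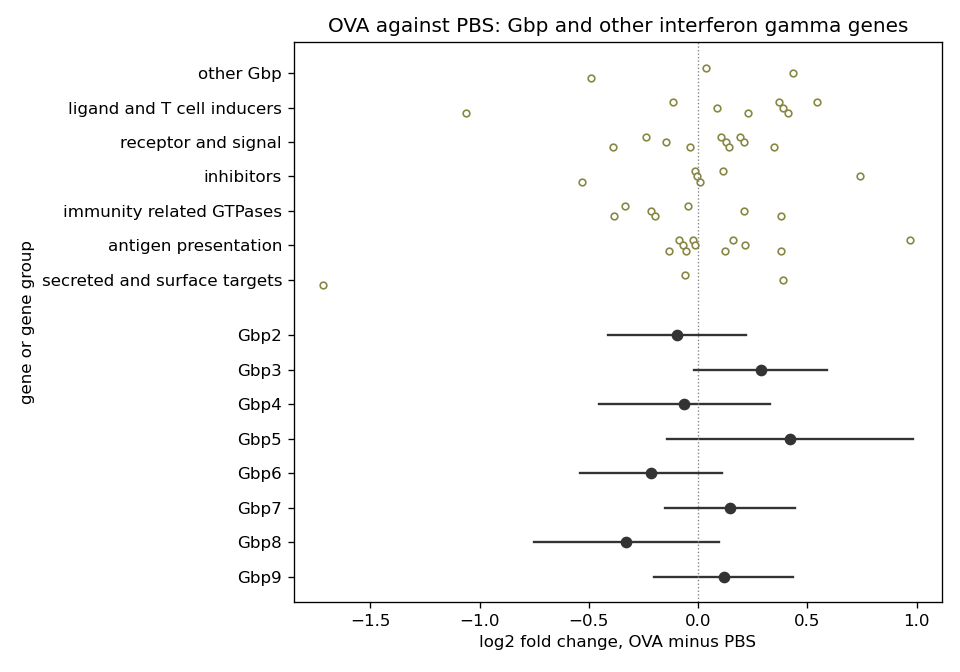
Log2 fold change of OVA against PBS for the 8 Gbp genes (filled points, lines the 95% intervals of limma) and for 48 other genes of the interferon gamma pathway by group (open points, 1 per gene, spread vertically for sight). All 8 intervals cross 0, and no gene shown passed the test over all genes.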

How the data were processed

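Per the labels and the study's methods, T cells were isolated from spleens, libraries were made with the Illumina TruSeq RNA kit, and the authors aligned the reads with STAR 2.6.1d and counted genes in Partek Flow 9.0. The values deposited by the authors are counts divided by median-ratio size factors (signal, here called normalized counts). At least 99.9% of them were within 0.1 of a whole multiple of the value of 1 read in each library, and dividing by it gave between 6835696 and 29915782 reads. Use of strand in the counting is not given in the sources used here.

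The 8 genes and all gene lists were chosen with earlier results of these data known. Values were read 7 rows above the name for the Gbp genes. Other genes were placed by a hidden Markov model that allowed -10 to 40 rows between name and values (chance of change 0.002 per row, 15 rounds). It drew on the annotation of each name and on row means, without groups.

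Genes averaging at least 1 (20249) were tested with limma (3.58.1, R 4.3.3), using log2(normalized counts + 1), a trend of the variance, two-sided tests, Benjamini-Hochberg adjustment and a threshold of 0.05. The study's own tool, DESeq2 (1.42.0 here), and edgeR 4.0.16 were run on the recovered reads as alternatives, since the deposited values are not counts. Fold changes are on the log2(value + 1) scale and understate those of low genes. Single genes were also compared by exact permutation of the libraries, and levels of neighbours by exact sign-flip permutation. The fits were tested on simulated data. Named beyond the 8 genes were Ifng, Irf1, in each pathway group the gene with the largest statistic, and the 5 genes most alike, except that 1 gene is not reported here. Gbp10, Gbp11 and pathway genes that a count or a limit concerned were named after their values were seen. The alternatives were pseudocounts of 0.5 and 8, no minimum or a minimum mean of 5, every library at the same total, quantile normalization, array weights, edgeR, DESeq2, each library left out in turn, and names taken 1 row nearer, 1 row farther or as listed. Pathway genes placed with a probability of at least 0.9, the longest transcript and the levels with a library left out were added after seeing the data. All 10 libraries and all their columns of values were used.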

Additional observations from a re-analysis of the deposited data

Results flagged for a closer look

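Over 36 groups of 5 libraries (8 Gbp genes and 10 other pathway genes, each in PBS and in OVA), the lowest or highest library stood apart from the others in 2, by Dixon's ratio of its gap to the range, above the critical value of 0.71. Chance gives about 1 in 20 groups, or 1.8 here. Gbp2 in OVA 6 was at 1488 normalized counts with the nearest OVA library at 1754, a ratio of 0.777. Gbp2b in PBS 3 was at 459.7 with the nearest PBS library at 866, a ratio of 0.834.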

How the results depend on the processing

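The Gbp genes called numbered 0 of 8 under every alternative run, and of 152 values of single genes at their own rows, 148 kept the direction, with a lowest adjusted p of 0.252. The exceptions were Gbp2 (0.017) and Gbp4 (0.050) with every library at the same total, and Gbp4 with a library left out (-0.17 to 0.086 over these fits). Leaving out each library moved the median of the 8 genes between -0.08 and 0.12 and that of the pathway genes between -0.05 and 0.12, with 0 of 48 pathway genes called in each. The genes called among all numbered 0 with quantile normalization (1763 at an unadjusted p under 0.05), 2 with array weights, 2 with edgeR and 167 with DESeq2, against 1 in limma, and between 0 and 135 with a library left out, the most without PBS 5. The cause was not tested. At other rows the named genes are other genes. Read 1 row nearer to the name, log2 differences were -0.49 for Gbp2, -0.062 for Gbp3, 0.42 for Gbp4 and -0.21 for Gbp5. They were 0.14 for Gbp6, -0.33 for Gbp7, 0.12 for Gbp8 and -1.04 for Gbp9. Read 1 row farther they were 0.44 for Gbp2, -0.49 for Gbp3, 0.29 for Gbp4, -0.062 for Gbp5, 0.42 for Gbp6, -0.21 for Gbp7, 0.14 for Gbp8 and -0.33 for Gbp9. With the names as listed they were -0.33 for Gbp2, -1.04 for Gbp3, 0.35 for Gbp4 and -0.12 for Gbp5. For Gbp6, Gbp7, Gbp8 and Gbp9 they were 0.19, 0.43, -0.23 and 0.14. The number of neighbouring pairs that differed in level was 4 of 7 with the longest transcript, by which Gbp4 stood above Gbp9, and 4 or 5 with a library left out. The 4 pairs with the longest transcript were not all the same ones. They were Gbp2 over Gbp7, Gbp7 over Gbp3, Gbp6 over Gbp4 and Gbp9 over Gbp5. No paired analysis was possible because the groups share no replicate numbers. With 5 libraries a group, the 95% intervals of the 8 genes reach folds from 0.594 to 1.97, and differences inside them are not excluded.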
